A study of Homo sapiens with 6 samples.

Results

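The transcripts described here are those of the 3 sestrins (SESN1, SESN2, SESN3), of MDM2 and MDM4, which hold p53 in check, and of 4 further genes that p53 can switch on (CDKN1A, GADD45A, ZMAT3 and DDB2). These 9 genes were chosen by name, with earlier results of the same arrays known, among them the low value of SESN1 under the CKS1B shRNA. Their differences between the groups are therefore given as a description. They were found as all probe sets whose platform annotation names exactly 1 gene, matched by Entrez identifier, which gave 34 probe sets of the 41091 that name 1 gene, or 9 genes of 19777. The sestrins hold 10 of these probe sets and the other 6 genes hold 24. JJN3 is a human myeloma line in long-standing culture, and its total RNA was hybridised to 6 arrays of the Affymetrix type U133 Plus 2.0. On 3 of them (letters A, B and C in the titles) the cells had been transduced with a virus for a scrambled shRNA without a specific target, and on the other 3, with the same letters, for an shRNA against CKS1B. CKS1B helps the ligase SCF-SKP2 to recognise the cell cycle inhibitor p27 and mark it for degradation. The title of scrambled array B carries the added word poly, which the labels do not explain. They give no time after transduction, no count of cell clones and no state of p53 in this line, and no word on whether a group's arrays stem from separate cultures. A p-value here thus reflects just how far these arrays scatter, and that scatter may be technical. In total RNA of a culture, fewer cells that express a gene and less RNA per cell cannot be told apart.

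p53 is a transcription factor that damaged or stressed cells stabilise. It switches on genes that stop the cell cycle, repair DNA, limit growth or kill the cell, and among them is MDM2, whose product marks p53 itself for degradation. Sestrins are stress-induced proteins that restrain the growth kinase complex mTORC1 through the GATOR complexes, and SESN2 is known as a sensor of the amino acid leucine. SESN1 is known mainly as a p53 target, SESN2 also answers to the stress factor ATF4, and SESN3 is known as a target of FOXO transcription factors.

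Where p53 acts directly, it binds a pair of 10-base elements, here called decamers, in which a C and a G stand at fixed places of the core. The 250 bases before each start annotated by RefSeq (build GRCh38.p14) were read for 8 of the 9 members, in 15 windows. GADD45A had no entry in the table. The windows were searched on both strands for an exact p53 decamer and for 2 abutting decamers with the core C and G of each kept and at most 2 other mismatches. They were also searched for the FOXO motif GTAAACA and for the ATF4 motif TGATGNAA, where N is any base. The searches for single decamers and for pairs of decamers can overlap each other. Of the 35116 windows of the whole table, 5.57% held an exact decamer, 0.242% a pair, 2.98% the FOXO motif and 3.14% the ATF4 motif. Among the members 3 windows of 2 genes held a match. The window of SESN1 start 3 held an exact decamer beginning 49 bases before the start, and the windows of MDM2 starts 3 and 4, which overlap, held the same pair, beginning 94 and 101 bases before their starts. MDM2 is known to have an internal promoter that p53 drives. A match is a run of letters and not a measured site, and a missing match says only that these letters are not in the window. The 3 sestrins and MDM2 start 3 are shown, with matches in capitals, because SESN1 and MDM2 carry the matches and SESN2 and SESN3 are the relatives of SESN1 against which its values are set below.
SESN1, start 3 (chr6:109008989-109009238, minus strand): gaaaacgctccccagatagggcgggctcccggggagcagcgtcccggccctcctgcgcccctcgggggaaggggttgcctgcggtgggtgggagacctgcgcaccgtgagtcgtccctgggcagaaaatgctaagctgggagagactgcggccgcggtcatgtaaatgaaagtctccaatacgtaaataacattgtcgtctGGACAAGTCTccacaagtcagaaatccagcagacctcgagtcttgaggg
SESN2 (chr1:28259268-28259517, plus strand): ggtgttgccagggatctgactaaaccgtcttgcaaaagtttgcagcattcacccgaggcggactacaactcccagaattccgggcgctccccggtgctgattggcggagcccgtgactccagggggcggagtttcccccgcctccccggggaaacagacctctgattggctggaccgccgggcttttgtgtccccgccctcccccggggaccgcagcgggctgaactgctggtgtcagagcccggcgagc
SESN3 (chr11:95232476-95232725, minus strand): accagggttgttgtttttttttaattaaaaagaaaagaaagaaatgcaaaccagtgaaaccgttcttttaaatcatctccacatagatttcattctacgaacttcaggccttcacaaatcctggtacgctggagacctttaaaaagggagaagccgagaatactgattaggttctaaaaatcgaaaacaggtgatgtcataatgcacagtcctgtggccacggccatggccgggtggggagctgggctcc
MDM2, start 3 (chr12:68808767-68809016, plus strand): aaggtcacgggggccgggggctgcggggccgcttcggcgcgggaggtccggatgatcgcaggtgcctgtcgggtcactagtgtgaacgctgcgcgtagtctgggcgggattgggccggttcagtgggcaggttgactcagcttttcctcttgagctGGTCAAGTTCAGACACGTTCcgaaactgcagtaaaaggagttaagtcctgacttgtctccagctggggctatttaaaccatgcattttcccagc
The GC content of these windows was 60.4% for SESN1, 65.6% for SESN2, 42.8% for SESN3 and 59.2% for MDM2. The arrays do not say which start a transcript came from.

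Levels below are MAS5 values, a linear intensity per probe set. A log2 difference is the mean log2(value + 16) under the CKS1B shRNA less that under the scrambled shRNA, a scale that understates changes of dim probe sets. CKS1B itself read 8266, 8441 and 7294 with the scrambled shRNA and 481, 269 and 828 with the CKS1B shRNA, in the order A, B, C that is kept throughout (two-sided exact permutation test, p = 0.1, the smallest that 3 against 3 arrays allow). CKS1B shRNA array B stood apart. Its correlation with the other arrays over all probe sets was 0.577 to 0.61, against at least 0.879 among the others, its median value was 334 against 117.5 to 201.6, and its 3'/5' ratio of the actin control was 12.4 against 1.05 to 2.93. Over all probe sets its log2 values lay at a median of 0.80 above the scrambled mean, against -0.19 on CKS1B shRNA array A and -0.11 on C. The main values are therefore also given without this array, and the part of its quality in the values was not tested. All 9 plasma cell markers examined lay above the median level of the probe sets, which divides bright from dim below, with sums of 40536 to 47434 on the scrambled and 35616 to 59039 on the CKS1B shRNA arrays. JCHAIN was the largest of them on every array. On CKS1B shRNA array B single markers moved in opposite directions. TNFRSF17 (408.5 there, 4476.4 to 8732.6 elsewhere), MZB1, XBP1 and IRF4 were lowest there. SDC1 (1684.2 there, 551.6 to 1242.1 elsewhere), CD38, PRDM1 and CD27 were highest there. Of 4 B cell markers MS4A1 was bright on all arrays (4578 to 7996), PAX5 and BLK lay below the median level (at most 286.7 and 91.9), and CD79B read 39.5 on CKS1B shRNA array B and 254.9 to 927.6 elsewhere. The 4 T cell markers summed to 3363 on CKS1B shRNA array B and 629.8 to 1346 on the other arrays, although CD8A among them read 38.7 there and 271 to 344.4 elsewhere. The 5 stromal markers summed to 2091 there and 519.7 to 1269 elsewhere. Among them COL1A2 read 72.7 there and 219.9 to 462.5 elsewhere, and COL3A1 (158.7) lay inside its range elsewhere. COL1A1, PDGFRB and LUM were highest there. The 3 markers of t(14;16) myeloma (MAF, CCND2, ITGB7) summed to 6243 there and 19423 to 37608 elsewhere. The 3 myeloid markers summed to 653.7 there and 163.2 to 287.7 elsewhere, with CD14 at 437.8 there and 8.2 to 73.3 elsewhere. LYZ was also highest there, and CSF1R (124.7) lay inside its range elsewhere. Of the T cell markers 4 of 4 lay above the median level, of the stromal markers 2 of 5 and of the myeloid markers 0 of 3, and the part of these values in the results was not tested.

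SESN1 was the member with the lowest values under the CKS1B shRNA relative to the scrambled arrays. Its only probe set, 218346_s_at, read 914.7, 832.6 and 1045.4 with the scrambled shRNA and 331.1, 28.7 and 304.1 with the CKS1B shRNA. The groups did not overlap, and arrays A and C, which lay close together, stood at 35.6% and 32.7% of the scrambled mean of 931 ± 107 (SD, n = 3). Array B stood at 3.08% of it. The log2 difference was -2.47 (SE 0.76) with 6 arrays, the seventh lowest of 12663 genes, and -1.50 (SE 0.27), or 2.83-fold lower, without array B, the 66th lowest of 12612. The sizes thus differ by nearly 1 log2 unit with and without that array. Within each letter the CKS1B shRNA array was lower than its scrambled counterpart, by a log2 difference of -1.42 for A, -4.25 for B and -1.73 for C. By rank SESN1 lay above 82.0% to 85.8% of the probe sets with the scrambled shRNA. With the CKS1B shRNA it lay above 70.8% on A, 4.6% on B and 68.2% on C. A fall in rank on array B was not particular to SESN1. MDM4 225740_x_at lay above 9.8% of the probe sets there and above 79.2% to 85.1% elsewhere. Other ranks rose, such as that of ZMAT3 227221_at (94.7% there, 41.0% to 67.9% elsewhere). The suffix of the SESN1 probe set marks a design that can match more than 1 transcript, and no other probe set of SESN1 was there to compare.

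SESN2 and SESN3, the relatives of SESN1, were nearer to their scrambled values on arrays A and C. The brighter SESN2 probe set, 223195_s_at, read 570.1, 700.2 and 589.3 with the scrambled shRNA and 606.1, 253.3 and 442.7 with the CKS1B shRNA. Array A lay inside the scrambled range, and arrays B and C lay below it. The other SESN2 probe set, 223196_s_at, read 295.2, 348.5 and 429.7 and then 338.7, 81.8 and 339.4, so that only array B was outside the scrambled range. Their log2 differences were -0.58 (SE 0.38) and -0.68 with 6 arrays, and -0.25 (SE 0.29) and -0.06 without array B. The correlation of these probe sets over the arrays was 0.903 with 6 arrays and 0.133 with the 5 left without array B, values that are given as a description.

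SESN3 had 7 probe sets, 4 of them in the brighter part of the table. All 7 had a higher mean under the CKS1B shRNA with 6 arrays (log2 differences from 0.19 to 1.31), beside 31712 of all 54613 probe sets. On array B, where 55.78% of all probe sets lay above the scrambled range, 5 of the 7 did so. The brightest, 225123_at, read 1135.2, 909.8 and 717.8 with the scrambled shRNA and 1092.8, 892.9 and 1715.4 with the CKS1B shRNA. Only array C was above the scrambled range, and the log2 difference was 0.39 (SE 0.36), or 0.59 (SE 0.30) without array B. Probe set 235683_at likewise lay above the scrambled range on array C alone, with 645.1, 686.9 and 1024.3 against 554.4, 888.5 and 350.5. The dim probe set 242899_at was the only one of SESN3 whose groups did not overlap, at 166.2, 393 and 138.9 against 116.5, 114.6 and 28. Dim probe set 1553869_at had a mean that array B set, since it read 588.6 there and 13.1 to 87.5 on the other 5 arrays. Without array B, 6 of the 7 were higher, beside 21187 of all 54613 probe sets, and the 7 ranged from -0.15 to 0.88. None but 242899_at then had groups that did not overlap.

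**Figure D1:**
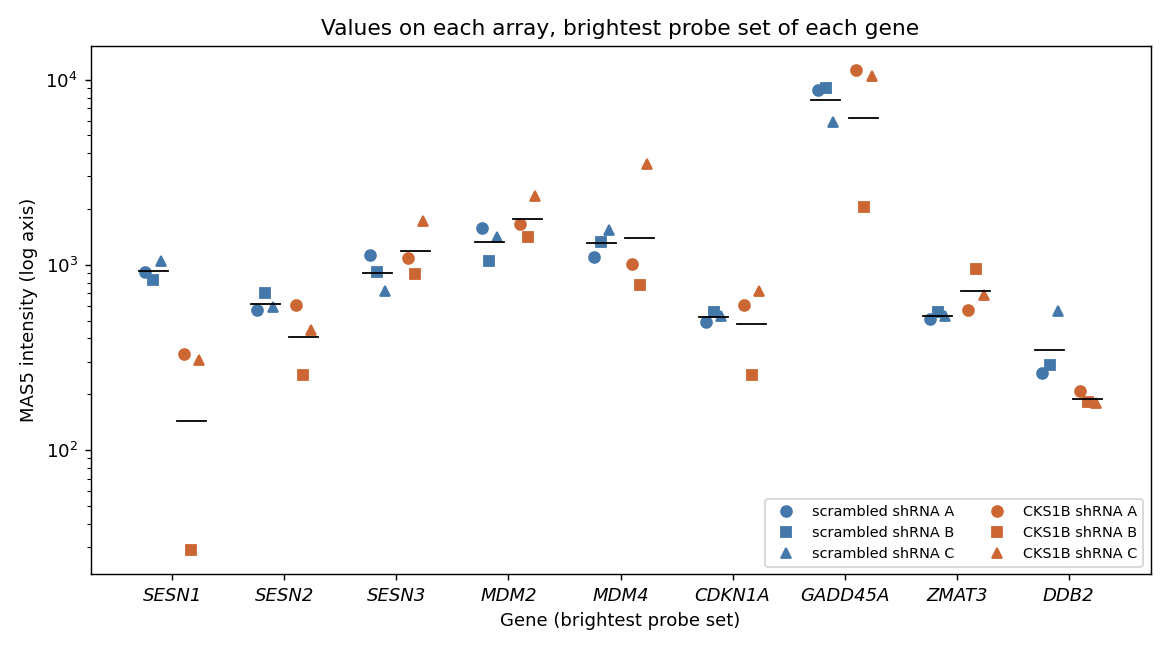
MAS5 intensity (log axis) of the brightest probe set of each of the 9 genes on each of the 6 arrays, with scrambled shRNA arrays in blue, CKS1B shRNA arrays in orange, a symbol per letter and a bar at the geometric mean of each group. SESN1 lies lower on all 3 CKS1B shRNA arrays, at 331.1, 28.7 and 304.1. Array B (squares) is the lowest CKS1B shRNA array for every gene except ZMAT3 and DDB2.

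The probe sets of MDM2, the ubiquitin ligase that degrades p53, did not give a common direction. Of 10 probe sets 4 were in the brighter part of the table, and 5 were higher and 5 lower with 6 arrays. The brightest, 229711_s_at, read 1586.6, 1053.6 and 1409 with the scrambled shRNA and 1655.2, 1413.4 and 2351.2 with the CKS1B shRNA. Its groups overlapped through array B, and its log2 difference was 0.40 (SE 0.35), or 0.56 (SE 0.27) without array B, when the groups did not overlap. The similarly bright 225160_x_at read 1499.3, 1755.1 and 1330.3 and then 1626.8, 550.8 and 1384.5, a log2 difference of -0.49 that shrank to -0.02 without array B. These brightest probe sets of MDM2 therefore differed in sign with 6 arrays. The largest difference of any member probe set upward was that of the dim MDM2 probe set 238733_at, which read 58.2, 62 and 53.2 and then 129.4, 312.7 and 295.6. Its groups did not overlap, and its log2 difference was 1.74 with 6 arrays and 1.53 without array B. With 6 arrays the groups overlapped in the remaining 9 MDM2 probe sets. Over the 45 pairs of MDM2 probe sets the median correlation over the 6 arrays was -0.025, with a range from -0.974 to 0.874, and over the 5 arrays without array B it was -0.167.

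MDM4, a relative of MDM2 that binds p53 and blocks its activity, had 6 probe sets with 5 in the brighter part. Its brightest, 236814_at, read 1103.7, 1327 and 1545 with the scrambled shRNA and 1007, 778.3 and 3498.8 with the CKS1B shRNA. Arrays A and B lay below the scrambled range and array C above it, and the log2 difference was 0.09 (SE 0.56), or 0.51 (SE 0.44) without array B. With 6 arrays the mean over the 5 MDM4 probe sets in the brighter part had the opposite sign (-0.35). On 225740_x_at, 1 of these, array B read 56.7, against 647.2 to 979.7 on the scrambled arrays and 628.8 (A) and 1017.8 (C) with the CKS1B shRNA. The log2 difference of 225740_x_at was -1.16 with 6 arrays and 0.005 without array B. The dim 205655_at was the only MDM4 probe set without overlap, at 56.9, 97.9 and 51.6 against 14.9, 45.7 and 17.7. Of its 6 probe sets 4 were lower, both with 6 arrays and without array B.

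CDKN1A and GADD45A, both known p53 targets that slow the cell cycle, were higher on CKS1B shRNA arrays A and C than on any scrambled array and lower on array B. CDKN1A encodes the kinase inhibitor p21, and its only probe set, 202284_s_at, read 488.5, 554.1 and 527.4 with the scrambled shRNA and 607.1, 253.7 and 718.6 with the CKS1B shRNA. The means of 523 ± 33.0 and 526.5 ± 243 (SD, n = 3) lay within the spread of the arrays, with array B below the scrambled range and A and C above it. The log2 difference of CDKN1A was -0.11 (SE 0.43) over 6 arrays and 0.33 (SE 0.27) without array B. GADD45A encodes a stress protein that activates the p38 and JNK kinase cascade, and 203725_at read 8773, 8964 and 5944 and then 11289, 2053 and 10411. For GADD45A the log2 difference came to -0.32 (SE 0.71) over 6 arrays and 0.48 (SE 0.24) without array B. Both genes thus changed sign when that 1 array was left out.

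ZMAT3 is an RNA-binding p53 target, and DDB2 finds ultraviolet damage in DNA. Through their brightest probe sets both genes kept their sign with and without array B. The brightest of 5 ZMAT3 probe sets, 219628_at, read 512.2, 553.1 and 526.3 and then 569.4, 946.6 and 686, and the groups did not overlap. The log2 difference of this ZMAT3 probe set was 0.43 (SE 0.31) over 6 arrays and 0.23 (SE 0.27) without array B. Probe set 228315_at, also bright, overlapped between the groups (390.9 to 592.5 against 479.3 to 741.7), and 227221_at read 1860.3 on array B against 146.7 to 274.5 on the other 5 arrays. The remaining ZMAT3 probe sets changed sign. The log2 difference of the dim 1555609_a_at went from -0.15 over 6 arrays to 0.48 without array B. That of the bright 225725_at went from 0.11 to -0.02. DDB2 had 1 probe set, 203409_at, which read 261, 286.4 and 565.6 with the scrambled shRNA and 209, 181.8 and 178.8 with the CKS1B shRNA. All 3 CKS1B shRNA arrays lay below the scrambled range, and scrambled array C was the highest of all 6. The log2 difference of DDB2 was -0.83 (SE 0.44) with 6 arrays and -0.80 (SE 0.43) without array B, and within the letters it was -0.30, -0.61 and -1.58 for A, B and C.

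**Figure D2:**
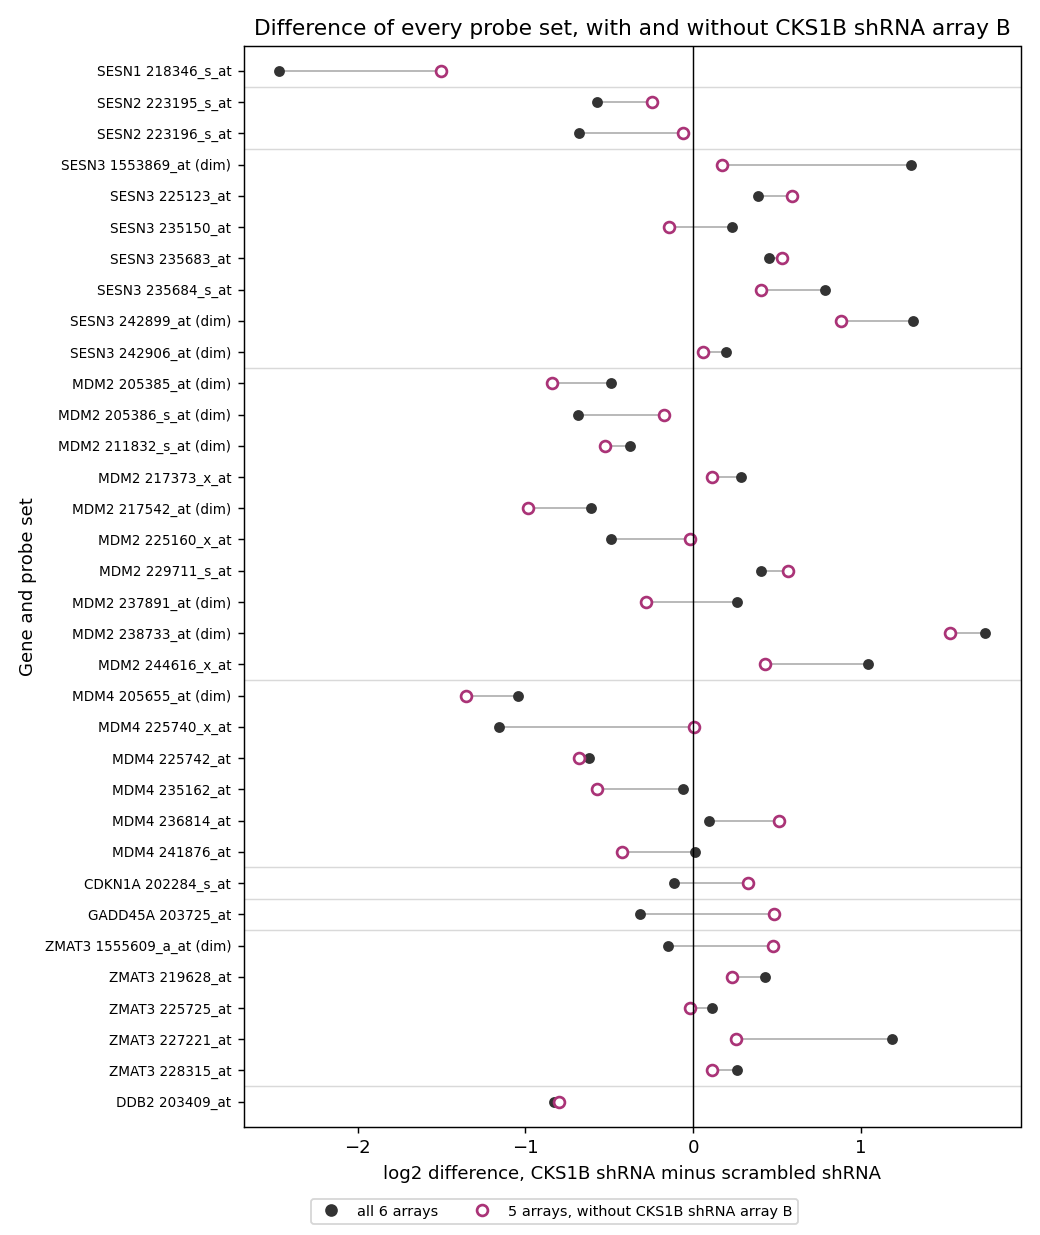
log2 difference (CKS1B shRNA minus scrambled shRNA) of each of the 34 probe sets, with all 6 arrays (filled) and without CKS1B shRNA array B (open), where dim marks probe sets below the median of the table. SESN1 stays lowest at -2.47 and -1.50, while CDKN1A and GADD45A change sign between the filled and the open points.

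With 6 arrays 0 of the 34 member probe sets passed an adjusted p of 0.05 in limma over all 54613 probe sets, of which 0% passed, and at an unadjusted p under 0.05 there were 2, SESN1 lower and MDM2 238733_at higher, beside 1.77% of all probe sets. In the fit of 1 probe set per gene 0 of 9 passed, beside 0% of 12663 genes, with SESN1 alone at an unadjusted p under 0.05, beside 2.95% of all genes. Without array B 0 of 34 probe sets passed, beside 0.0201% of all, and 0 of 9 genes, beside 0.0476%. The same 2 probe sets and SESN1 were then under 0.05 unadjusted, beside 5.66% of all probe sets and 9.65% of all genes. These counts without array B lay near the background, while the same counts with 6 arrays lay above the smaller shares of 1.77% and 2.95%. The groups did not overlap in 3 member probe sets that were higher (SESN3 242899_at, MDM2 238733_at and ZMAT3 219628_at) and in 3 that were lower (SESN1, MDM4 205655_at and DDB2). Over the whole table this was so for 4.17% of probe sets upward and 3.6% downward. Without array B, 7 member probe sets were higher without overlap, beside 7.99% of the table, and 3 lower, beside 13.7%. Since this contrast was in view when the genes were chosen, nothing is read from these shares. Of the 34 member probe sets 18 were higher and 16 lower with 6 arrays, at a median of 0.05, against a median of 0.12 over all probe sets.

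**Figure D3:**
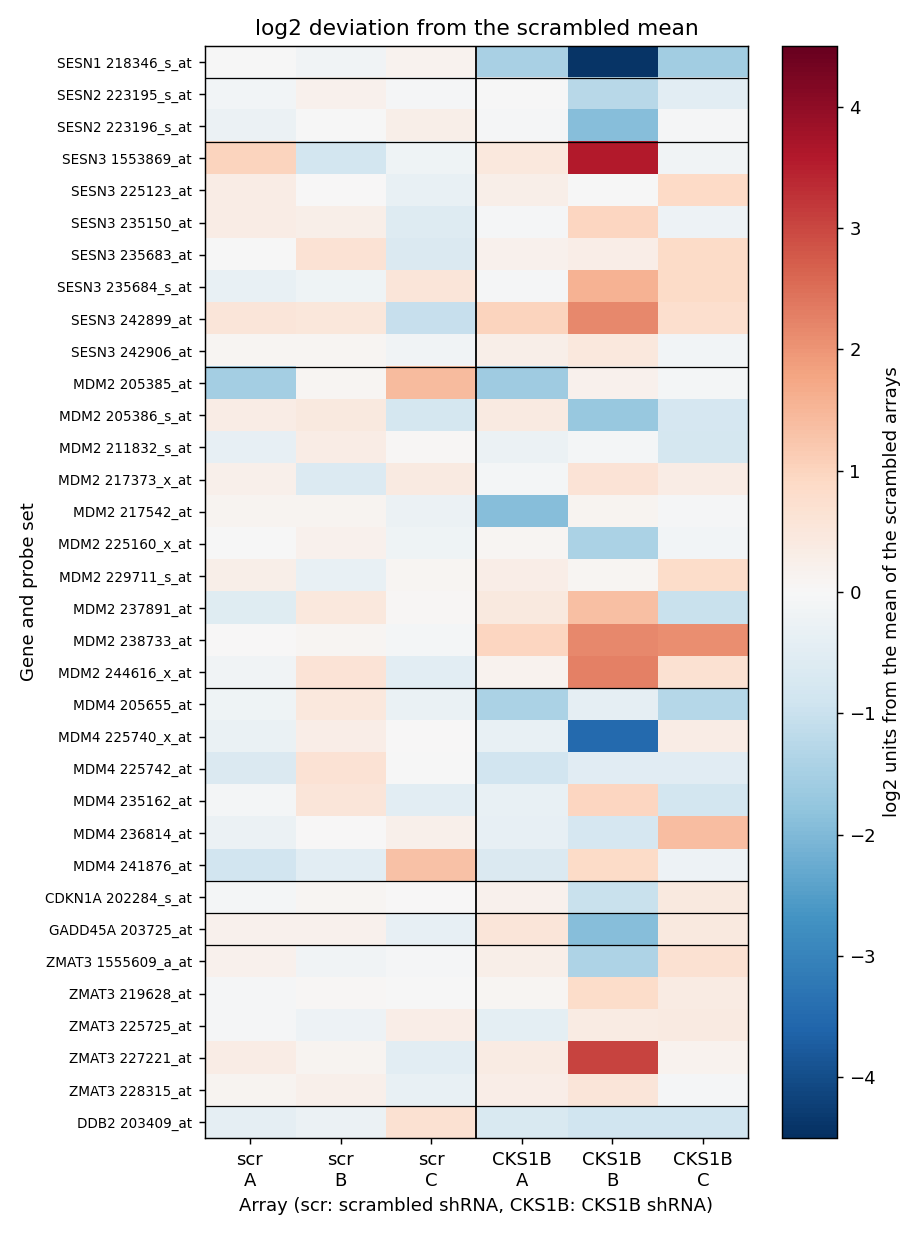
log2 deviation of each of the 34 probe sets from the mean of the scrambled arrays, with arrays as columns (scrambled left, CKS1B shRNA right) and colour as log2 units. The strongest colours lie on CKS1B shRNA array B, from -4.40 for SESN1 to 3.56 for SESN3 1553869_at, while SESN1 on arrays A and C lies at -1.44 and -1.56.

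Set side by side through the brightest probe set per gene, SESN1 lay below all other 8 members on each CKS1B shRNA array. On array A the dim MDM2 probe sets 217542_at and 205385_at lay lower still, at -1.91 and -1.60 log2 units from the scrambled mean. Through the brightest probe set per gene, SESN1, SESN2 and SESN3 lay at -1.44, -0.03 and 0.27 log2 units from the scrambled mean on array A. They lay at -4.40, -1.23 and -0.02 on array B and at -1.56, -0.47 and 0.91 on array C. SESN1 was the lowest and SESN3 the highest sestrin on each of these arrays. The other 6 genes lay between -0.70 (DDB2) and 0.54 (GADD45A) on array A, between -1.91 (GADD45A) and 0.82 (ZMAT3) on array B and between -0.91 (DDB2) and 1.40 (MDM4) on array C. Their medians were 0.155, -0.81 and 0.44 on arrays A, B and C, beside sestrin medians of -0.03, -1.23 and -0.47 and medians over all genes of -0.04, 0.01 and -0.02. The sestrin median on array A turned positive with median centring (0.27) and with quantile normalization (0.072). On array B the sestrin median moved to -2.33 under both, and that of the others to -1.91 and -1.04. On array C 5 of the other 6 genes lay above the scrambled mean, against 4 on array A and 2 on array B. On the scrambled arrays no sestrin lay farther than 0.33 log2 units from the group's mean, and DDB2 on array C, at 0.67, lay farthest of the other 6. No test was made of sestrins against the others, since the genes were picked with results known.

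The genes whose values followed SESN1 most closely over the 6 arrays were ITPR3, ERLIN1, ADAM28, AQR and PDSS2, with Pearson correlations from 0.995 to 0.998 among 12662 genes, each through its brightest probe set. ITPR3, a calcium channel of the endoplasmic reticulum, read 1494.8, 1404 and 1640.1 with the scrambled shRNA and 1063.5, 475.9 and 1040.5 with the CKS1B shRNA. The points share 6 arrays of which array B was the lowest for each of these genes, and 958 genes had a correlation with SESN1 over 0.9. Over the 5 arrays without array B the 5 named genes correlated with SESN1 at 0.977 (PDSS2) to 0.993 (ERLIN1). They had been picked by a correlation that already held these 5 arrays, so these values give no separate support. The log2 differences of the 5 genes with 6 arrays, from -1.34 to -0.89, were smaller than that of SESN1. Among the other members SESN2 correlated with SESN1 at 0.921, rank 635 of 12662 genes, and at 0.558 over the 5 arrays without array B. DDB2 correlated at 0.671 over 6 arrays and 0.802 over 5, and ZMAT3 ran opposite to SESN1 at -0.966 and -0.822. CDKN1A and GADD45A went from 0.692 and 0.724 over 6 arrays to -0.887 and -0.812 over 5. SESN3, MDM2 and MDM4 went from -0.097, -0.168 and 0.315 to -0.765, -0.714 and -0.418, so that most correlations of the other members with SESN1 depended on array B.

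In view of these genes, 6 lists of p53 targets, p53 regulators and partners of the members held 0 genes past an adjusted p of 0.05 in limma over all genes, with 6 arrays and without array B. With 6 arrays 12 of 30 p53 targets tested were higher and 18 lower, at a median log2 difference of -0.08, equal to the median of all 12663 genes. Without array B 21 of 30 were higher, at a median of 0.14 against -0.03 over all 12612 genes. Of all genes 5609 of 12663 were higher with 6 arrays and 5885 of 12612 without array B, the background for such counts in each list. The p53 target list shares 7 genes with the members, SESN1 and SESN2 among them, and at an unadjusted p under 0.05 it held SESN1 alone in both fits. Of all genes 2.95% were under that limit with 6 arrays and 9.65% without array B, which is the background for each such count in the lists that follow. The other named targets were XPC, which recognises damage in nucleotide excision repair, and PMAIP1 (NOXA), which promotes cell death. XPC read 1088.2, 977.7 and 1278.1 with the scrambled shRNA and 838.4, 360.7 and 775.2 with the CKS1B shRNA, without overlap (log2 difference -0.83, and -0.45 without array B). PMAIP1 read 5435, 6078 and 3340.5 and then 5074, 754.3 and 3313, a log2 difference of -1.03 that came to -0.23 without array B. Both XPC and PMAIP1 were lowest on array B.

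Of the regulators of the p53 protein 9 of 24 were higher with 6 arrays (median -0.255) and 13 of 24 without array B (median 0.07). SIRT1, a deacetylase that acts on p53, read 1043.7, 1306 and 930.6 with the scrambled shRNA and 651.7, 508.3 and 659.3 with the CKS1B shRNA. All 3 lay below the scrambled range, and its log2 difference of -0.83 (SE 0.30, adjusted p = 0.933 in limma) was -0.71 without array B. KAT5, an acetyltransferase, read 1618.9, 1728.2 and 1003.7 and then 2031.1, 2303.3 and 2155.2 (log2 difference 0.61), and 1 of its 3 bright probe sets had the opposite sign (-0.23). Without array B the log2 difference of KAT5 was 0.56, and all 3 probe sets were higher. At an unadjusted p under 0.05 this list held SIRT1 with 6 arrays (1 of 24) and 2 of 24 genes, both lower, without array B, beside 2.95% and 9.65% of all genes. In the short list of GADD45 and its kinase partners, with 6 genes tested, 3 were higher (median -0.10), and 4 were without array B (median 0.23). This short list held no gene at an unadjusted p under 0.05 with 6 arrays, and MAP3K4 alone without array B. MAP3K4, the kinase that GADD45 proteins activate, read 1690.9, 1732.5 and 1741.3 and then 1345.5, 1003.6 and 1070.6, without overlap (log2 difference -0.60, and -0.51 without array B). PCNA, the sliding clamp of DNA replication that GADD45A binds, read 6329, 6869 and 3924 and then 8394, 7918 and 5397, with a log2 difference of 0.36, and 0.28 without array B.

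Among the partners of sestrins in nutrient signalling 9 of 30 genes were higher with 6 arrays (median -0.18) and 14 of 30 without array B (median -0.04). SQSTM1 (p62), an autophagy receptor that binds sestrins and the oxidative stress sensor KEAP1, read 7528, 6791 and 5379 with the scrambled shRNA and 12294, 12617 and 16099 with the CKS1B shRNA. All 3 CKS1B shRNA arrays, array B included, lay above the scrambled range. SQSTM1 had a log2 difference of 1.06 (SE 0.45, adjusted p = 0.933 in limma) over 6 arrays and 1.11 (SE 0.23, adjusted p = 0.274) without array B. Its 4 bright probe sets ranged from -0.05 to 1.73 with 6 arrays and from 0.47 to 1.65 without array B. NPRL3, a subunit of the GATOR1 brake on mTORC1, read 797.3, 925.2 and 751.2 and then 534.4, 423.6 and 625.3 (log2 difference -0.64, and -0.50 without array B). Its 3 bright probe sets ranged from -0.64 to 0.12 with 6 arrays and from -0.50 to -0.02 without array B. At an unadjusted p under 0.05 SQSTM1 stood alone in this list with 6 arrays, and 3 of 30 genes were higher and 1 lower without array B, when 9.65% of all genes were under that limit.

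Of 7 transcription factors known to act on sestrin genes, 2 were higher with 6 arrays (median -0.41) and 4 without array B (median 0.24). Among them FOXO4 alone was at an unadjusted p under 0.05 with 6 arrays, and no gene was without array B. FOXO4 read 142.1, 75 and 66.8 with the scrambled shRNA and 219.5, 529.8 and 217.8 with the CKS1B shRNA, without overlap and near the dim limit of the table (log2 difference 1.55, and 1.15 without array B). NFE2L2 (NRF2), the factor of the oxidative stress response, read 2792, 2964 and 1981 and then 2447, 770.5 and 1370, with overlap (log2 difference -0.88, and -0.47 without array B). Of the DDB2 ligase and nucleotide excision repair 4 of 17 genes were higher with 6 arrays (median -0.59), the lowest median of the 6 lists. Without array B it was 7 of 17 (median -0.07), near the median of all genes. ERCC1, which cuts damaged DNA together with ERCC4, read 804.2, 1111.2 and 991.4 and then 1056.4, 3113.9 and 2577, so that array A stayed inside the scrambled range. Its log2 difference was 1.07, and 0.77 without array B. The 3 bright probe sets of ERCC1 ranged from -0.02 to 1.07 with 6 arrays and from 0.12 to 0.77 without array B. It was the only gene of this list at an unadjusted p under 0.05 with 6 arrays, and without array B there was none.

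**Figure D4:**
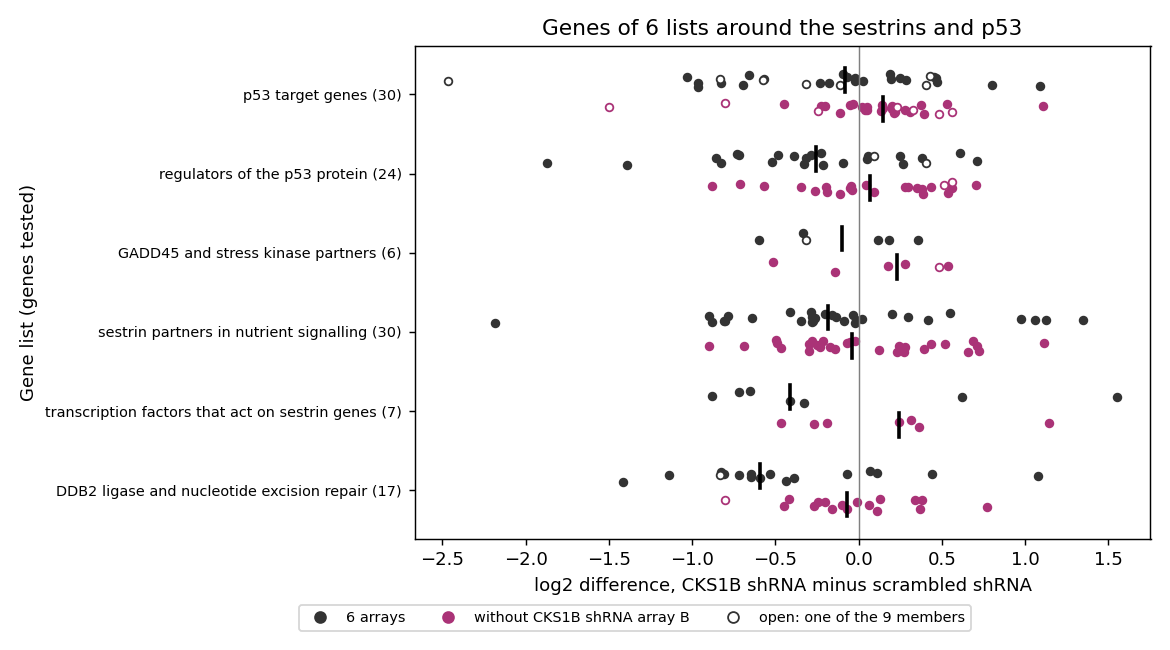
log2 difference (CKS1B shRNA minus scrambled shRNA) of the genes tested in each of 6 lists, with 6 arrays (black) and without CKS1B shRNA array B (purple), black bars at the list medians and open points for the members. SESN3 is in none of the lists and is not shown. The medians with 6 arrays lie between -0.59 and -0.08 and those without array B between -0.07 and 0.24, and SESN1 is the lowest p53 target in both.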

How the data were processed

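Total RNA of JJN3 was measured on 6 arrays, 3 per shRNA. The authors deposited a linear intensity for each probe set, computed with MAS5 per the submitters' processing notes (version and parameters not given in the sources used here), and their 2% trimmed mean was 500 on every array. Of 54675 probe sets, 62 controls were left out, 41091 of the rest named 1 gene in the platform annotation, 1801 several and 11721 none, and 41037 of the first were found in RefSeq GRCh38.p14 by Entrez identifier for current symbols. No coordinates were taken for the probe sets.

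Values were turned into log2(value + 16). limma 3.58.1 under R 4.3.3 (lmFit, then eBayes with trend) compared the groups, with Benjamini-Hochberg adjustment over all features at a threshold of 0.05. One fit used all 54613 probe sets. The other used the brightest probe set of each gene, at or above the median mean log2 value (7.34), with 12663 genes, or 12612 without CKS1B shRNA array B. All 9 members and 23 of their 34 probe sets were above that limit. The members and gene lists were chosen with earlier results of these data known. Genes named were the members, CKS1B, for each list those past the threshold or else the 2 of smallest p with 6 arrays that are no members, and the 5 genes with the highest correlation with SESN1. Alternatives are in the closing section. The scripts were tested on simulated data. Figures used Python 3.11.15 and matplotlib 3.10.9.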

Additional observations from a re-analysis of the deposited data

How the results depend on the processing

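Over 22 alternatives, or 23 for ZMAT3, SESN1, SESN2 and DDB2 stayed lower and MDM2 and ZMAT3 higher through the probe set used. SESN1 ranged from -2.99 to -1.30, MDM2 from 0.17 to 0.76 and DDB2 from -1.16 to -0.46. SESN3 turned to -0.040 without both arrays of letter C. MDM4 turned to -0.14 with median centring, -0.35 when a gene's bright probe sets were averaged and -0.44 without both arrays of letter C, and it ranged from -0.56 to 0.51 when 1 array was left out. CDKN1A and GADD45A turned to 0.25 and 0.27 with array weights and to 0.37 and 0.585 without both arrays of letter B. Left without 1 array each, CDKN1A ranged from -0.39 to 0.33 and GADD45A from -0.74 to 0.48, the highest being without CKS1B shRNA array B. Without that array and with quantile normalization, chosen after seeing the data, they were 0.44 and 0.19, and with median centring 0.53 and 0.68. Median centring moved the median of all genes from -0.08 to -0.31.

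The count of genes past the threshold, 0 with 6 arrays, was 4 with array weights, 1 without both arrays of letter B and 0 to 6 when 1 array was left out. From the 6 genes without CKS1B shRNA array B it went to 2 with quantile normalization and 27 with median centring. For probe sets the counts were 86 with array weights, 16 without both arrays of letter B, 0 to 11 with 1 array left out, and 2 and 1 with quantile normalization and median centring without array B. No member passed in any of these. CKS1B was at -3.80 with array weights, -3.59 without both arrays of letter B, -4.41 to -3.63 with 1 array left out, and -3.68 and -3.43 with quantile normalization and median centring without array B. It passed the threshold in each of these except where an array other than CKS1B shRNA array B was left out. The causes were not tested.

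The labels do not say what the letters mark, and the letters were not taken as pairs in the main fits. The titles give arrays of the same letter consecutive numbers, which the labels do not explain. Deviations from the group means correlated at 0.347, -0.16 and -0.153 for like letters and between -0.377 and 0.329 for unlike letters. Such deviations cancel out within a group and include CKS1B shRNA array B, so these values cannot decide whether the letters are pairs. With letters A and C alone the correlation was 0.21 for like and -0.21 for unlike letters, values that with 2 arrays a group must be equal and opposite, so whether the letters pair the arrays is not known. With the letter as a replicate block, SESN1 stayed at -2.47 (adjusted p = 0.937 in limma) and 0 genes passed. With the letter as a replicate block and without both arrays of letter B, chosen after seeing the data, 1 residual degree of freedom was left. Then 166 genes and 382 probe sets passed, 1 member among each, SESN1 at -1.58 (adjusted p = 0.00624), with CKS1B at -3.59, CDKN1A at 0.37 and GADD45A at 0.585.

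For the CKS1B shRNA, the medians on A, B and C were 0.27, -2.33 and -0.36 for the sestrins and 0.45, -1.91 and 0.54 for the other members with median centring, the sestrin median on A turning positive from -0.03. With quantile normalization they were 0.072, -2.33 and -0.33 for the sestrins, and 0.22 and -1.04 for the others on arrays A and B. The number of arrays limits the precision, and dim probe sets lie near background.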
